A study of Mus musculus with 8 samples.

Results

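Chemokines are small secreted proteins that guide migrating leukocytes, and each acts through receptors of the G protein-coupled class. On the arrays 57 genes of this family were measured, of 22911 genes with a name in all. They were chosen by symbol alone: every gene whose RefSeq accession led to a symbol starting with Ccl, Cxcl, Ccr or Cxcr and a digit, together with Cx3cl1, Cx3cr1, Xcl1, Xcr1 and Ackr1 to Ackr4, with 1 ligand of the CXC class not considered here. The 57 genes comprise 34 ligands (21 CC, 11 CXC, 1 CX3C and 1 XC), 19 signalling receptors and 4 atypical receptors. They were measured by 72 probes, and each gene is reported by the probe with the highest mean level over the 8 arrays.

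Islets came from 2 groups of mice aged 11 weeks, 4 arrays per group, with 150 islets in each RNA extraction. βFbln5KO mice carry a floxed Fbln5 gene, which encodes the matrix protein Fibulin-5, together with Ins1-Cre, in which the mouse insulin 1 promoter drives Cre in β-cells. Controls were Fbln5-floxed mice, so the floxed allele is common to both groups, and Ins1-Cre mice without it were not analysed here. All cells of the islet other than β-cells should keep a functional Fbln5 gene in either group, and those cells include the islet macrophages, endothelium and other cells that are the usual carriers of chemokine receptors. The comparison asks whether chemokine transcripts of the islet differ when β-cells lack Fbln5.

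CC chemokines mainly attract monocytes, T cells and eosinophils, and CXC chemokines mainly attract neutrophils and lymphocytes. CX3C and XC chemokines are small classes of their own. Atypical receptors bind chemokines without coupling to G proteins and so remove ligand from tissue. In islets, β-cells release chemokines under inflammatory cytokines, and resident macrophages carry Cx3cr1, the receptor for the membrane-anchored ligand Cx3cl1.

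Levels are log2 processed signals minus the 75th percentile of the same array, so a level of 0 equals that percentile. A gene is called detected on an array where the scanner software marked its probe as well above background. On control arrays 56.6% to 58.8% of spots were well above background, and on βFbln5KO arrays 52.6% to 56.6%. The median level of probes dim on every array ranged from −7.06 to −6.85 over the control arrays but from −6.78 to −6.29 over the βFbln5KO arrays, so the dim end of the scale was shifted upwards in βFbln5KO. Because each group filled its own row of the slide, an effect of the row and one of the genotype cannot be told apart. All 8 markers of β-cells were detected on all 8 arrays. The level of Fbln5 itself ranged from −2.05 to −1.32 on control arrays, with βFbln5KO arrays at −2.74 to −1.37 (log2 difference −0.50, SE 0.286, adjusted p = 0.342 by limma), so the ranges overlapped.

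Most chemokine transcripts were faint or undetected in these islets. Of the 57 genes, 14 (24.6%) were detected on all 8 arrays, against 59.6% of all named genes. A further 17 (29.8%) were detected on 1 to 7 arrays, against 15.5% of all genes, and 26 (45.6%) on none, against 24.9%. The ligands detected throughout were Ccl27a, Cx3cl1, Ccl28, Ccl25, Cxcl16, Ccl19, Ccl4, Ccl11, Ccl6 and Ccl5. Among the 19 signalling receptors, Cx3cr1 and Cxcr6 were detected on all 8 arrays, 6 were detected on some and 11 on none. Those never detected included Ccr1, Ccr1l1, Ccr3, Ccr6, Ccr7, Ccr9, Ccr10, Cxcr2, Cxcr3 and Xcr1. Each of the 4 atypical receptors was detected on at least 1 array, with Ackr1 and Ackr3 on all 8. A dim probe gives no more than an upper bound on the level, and fewer cells of a type and less RNA per cell cannot be told apart in whole islets.

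**Figure D1:**
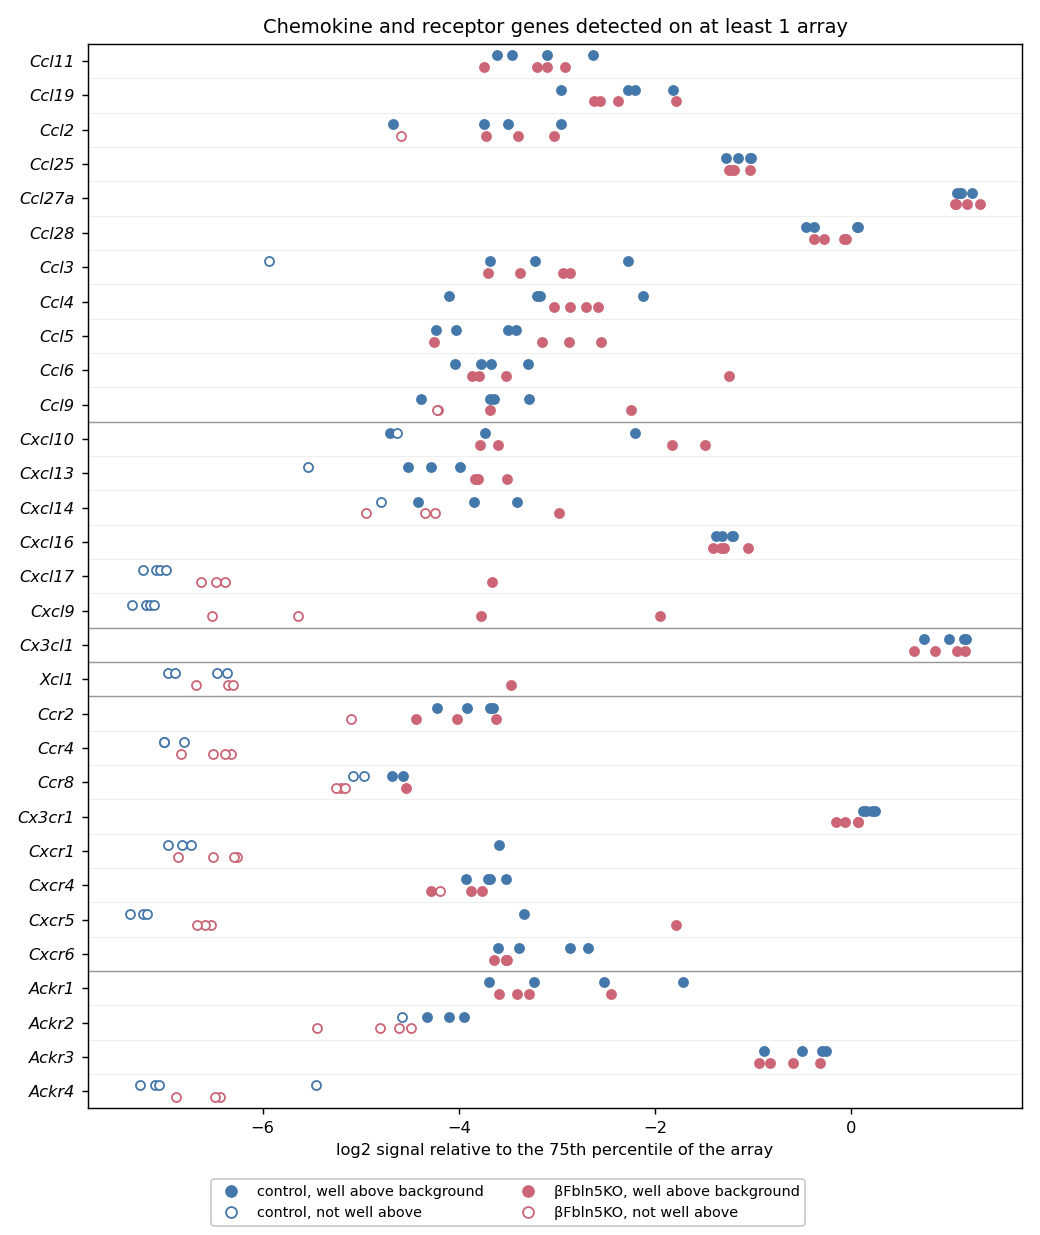
Levels of the 31 chemokine and receptor genes detected on at least 1 array, as log2 signal relative to the 75th percentile of the array (horizontal axis), with 1 point for each array, 4 control (blue) and 4 βFbln5KO (red). Filled points are well above background and open points are not, and lines part CC, CXC, CX3C and XC ligands, receptors and atypical receptors. The 2 groups overlap for 27 of the 31 genes, 3 lie wholly higher in βFbln5KO (9.68%, against 4.02% of all genes detected on at least 1 array) and 1 wholly lower (3.23%, against 2.2%), and most points below −4.8 are open. Of the 3, Cxcl9 and Cxcl17 were detected on βFbln5KO arrays only, and dim probes in general lay higher on those arrays. Values left out as outliers (1 each of Ccr4 and Ackr4) are not drawn.

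Detection differed between the gene clusters of the genome. In GRCm38 the neutrophil-attracting CXC ligands Cxcl1, Cxcl2, Cxcl3, Cxcl5 and Cxcl15 lie together on chromosome 5 from 90759298 to 90905938, and none of these 5 genes was detected on any array. Their shared receptor Cxcr2 was not detected either. On chromosome 11, the 5 ligands between 83525778 and 83664683, from Ccl5 to Ccl4, were each detected, 3 of them on all 8 arrays. A neighbouring cluster of 6 ligands, from 82035577 to 82179812, had 1 gene detected on all 8 arrays (Ccl11), 1 on 7 arrays (Ccl2) and 4 on none. Cxcl9 and Cxcl10, which lie side by side on chromosome 5 between 92321331 and 92348889, were each detected on some arrays.

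Few ligands were detected together with a signalling receptor in a chosen list of known pairs, which held no atypical receptor. Of 32 listed pairs with both partners on the arrays, both were detected on all 8 arrays for 2 pairs, Cx3cl1 with Cx3cr1 and Cxcl16 with Cxcr6. Counting any detection, 4 pairs had both partners, the others being Ccl2 with Ccr2 and Cxcl13 with Cxcr5. The ligand alone was detected in 15 pairs, among them Ccl25 without Ccr9, Ccl19 without Ccr7, and Ccl27a and Ccl28 without Ccr10. In 6 pairs the receptor alone was detected, and in 7 pairs neither partner was.

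No chemokine or receptor gene passed the test after adjustment over all probes. With limma, 0 of the 57 genes had an adjusted p under 0.05 (background over all genes 0.0131%), and the smallest adjusted p was 0.0728. At an unadjusted p under 0.05, 18 genes (31.6%) were higher in βFbln5KO, against 16.8% of all genes, and 2 genes (3.51%) were lower, against 2.68%. Without a mean-variance trend limma called 10 genes after adjustment (17.5%, against 9.11% of all genes), and the methods' t-test called 1, Ccl8 (1.75%, against 0.153%), all of them dim on every array. Leaving out βFbln5KO replicate 4 gave 17 adjusted calls (29.8%, against 16.4% of all genes), of which Ccr4 and Cxcl17 were the only genes detected on any array.

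Most of the higher calls lay among probes that never left the background, at a share near that of all undetected genes. Of the 26 undetected genes, 15 (57.7%) were higher at an unadjusted p under 0.05, and so were 60.6% of all undetected genes. Their median log2 difference was 0.48, as was that of all undetected genes. Normexp background correction left 1 higher gene in place of 18 (1.75%, against 0.742% of all genes with the same correction), and quantile normalization left 3 (5.26%, against 1.9%). Over the 31 genes detected on at least 1 array, 3 were higher (9.68%, against 2.23% of all such genes) and 1 was lower (3.23%, against 3.23%). The 3 are Cxcl9, Cxcl13 and Ccr4. Cxcl9 was detected on βFbln5KO arrays only, so it entered the detected genes through the group in which it was high. Ccr4 entered through a control value left out of its fit as an outlier, and its fitted values were all at background. Dim probes lay higher on the βFbln5KO arrays, and the part of that shift in the higher calls was not tested. A fitted difference of a gene dim in both groups is no measured fold. In the lower direction there was 1 undetected gene (background 1.03%), Ccr9, with control levels of −5.43 to −5.22 and βFbln5KO levels of −6.59 to −5.80 (unadjusted p = 0.00924, adjusted p = 0.0737 by limma).

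**Figure D2:**
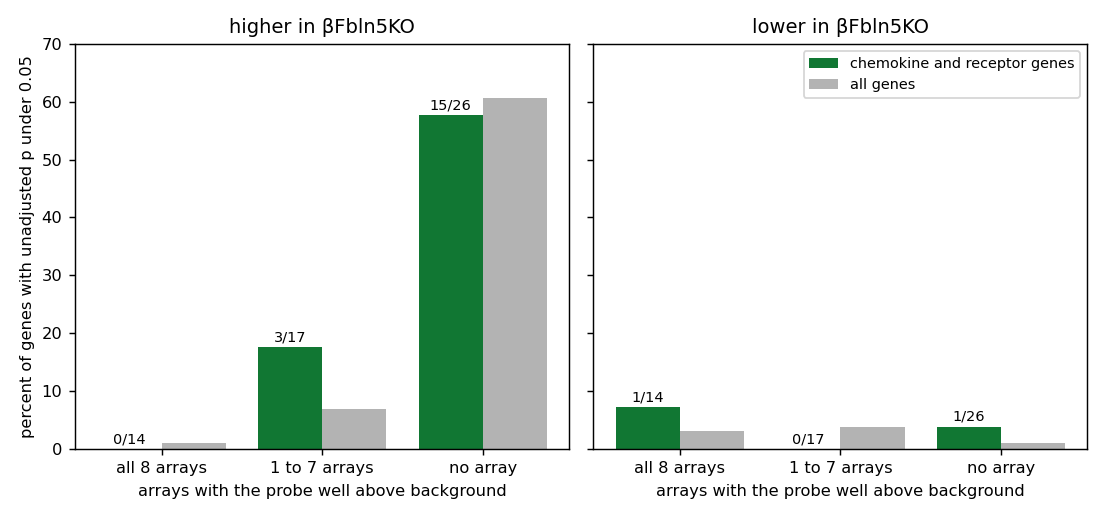
Percent of genes with an unadjusted limma p under 0.05 (vertical axis), higher (left) or lower (right) in βFbln5KO, by the number of arrays on which the probe was well above background. Green bars are chemokine and receptor genes, with called and total genes printed above, and grey bars are all named genes. Undetected chemokine genes stand at 57.7% higher beside 60.6% of all undetected genes, and genes detected on all 8 arrays at 0 of 14 beside 1.01%.

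Genes detected on all 8 arrays differed little between the groups. Their median log2 difference (βFbln5KO minus control) was −0.03, against −0.01 for all genes detected on all 8 arrays, and ranged from −0.42 to 0.59. None was higher at an unadjusted p under 0.05 (background 1.01%), and 1 was lower, Cx3cr1 (7.14%, background 3.08%). The 95% interval of the difference excluded a 2-fold change in either direction for 10 of the 14 genes. Intervals of Ccl4, Ackr1, Ccl6 and Ccl5 did not.

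Cx3cl1, or fractalkine, is an adhesive ligand tethered to the cell membrane by a mucin stalk. Its gene lies on chromosome 8 of GRCm38 from 94772180 to 94782427. The log2 levels were 0.99, 1.17, 1.15 and 0.74 on control arrays 1 to 4 and 0.64, 1.08, 0.85 and 1.16 on βFbln5KO arrays 1 to 4. These ranges overlapped, and the log2 difference was −0.08 with a 95% interval of −0.39 to 0.22.

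Cx3cr1, on chromosome 9 from 120048683 to 120068296, is the receptor of Cx3cl1 and marks tissue macrophages. Its levels were 0.12, 0.24, 0.15 and 0.21 on the control arrays and −0.16, 0.07, −0.07 and 0.07 on the βFbln5KO arrays. Every βFbln5KO value lay below every control value, which held for 2.07% of all genes detected on all 8 arrays. The difference was small, −0.20 on the log2 scale (SE 0.0679) or 1.15-fold lower, with an unadjusted p of 0.0175 and an adjusted p of 0.0982 by limma. A second, dimmer Cx3cr1 probe, also detected on all 8 arrays, differed by 0.01 (SE 0.146), and the mean of both probes gave −0.09 with an unadjusted p above 0.05. Of the 10 macrophage markers, 9 were detected on all 8 arrays and none was undetected throughout. Their summed level on the linear scale was 22.2 to 29.4 over the control arrays but 18.3 to 24.6 over the βFbln5KO arrays, and 1 of them, Aif1, was lower at an unadjusted p of 0.049 (log2 difference −0.28, adjusted p = 0.20 by limma). The markers did not move together, with a median difference of −0.05, 7 of them below 0 and 3 above (Lyz2 0.25, Cd14 0.15 and Cd68 0.03), and Itgam (difference −0.21) is the largest term of the sum. The part of macrophage content in the Cx3cr1 difference was not tested.

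Cxcl16 and its receptor Cxcr6 were the other pair seen on every array. Cxcl16, which also exists as a membrane protein and binds oxidised lipids, had levels of −1.38, −1.32, −1.22 and −1.21 in control and −1.41, −1.05, −1.30 and −1.33 in βFbln5KO. Values were interleaved, with a log2 difference of 0.01 and an interval of −0.20 to 0.22. Cxcr6, found on T cells, NK cells and innate lymphoid cells, had levels of −2.87, −3.60, −3.39 and −2.68 in control and −3.52, −3.51, −3.52 and −3.64 in βFbln5KO. The βFbln5KO values lay close together, 3 of them inside the low part of the control range and 1 below it (log2 difference −0.42, SE 0.229, unadjusted p = 0.104 by limma). Without control replicate 2 the difference was −0.57 with an unadjusted p of 0.0321. Summed levels of the 10 T and NK cell markers were 5.21 to 6.75 in control and 5.05 to 6.97 in βFbln5KO, and Cd3g, Gzmb and Nkg7 among them were undetected on every array.

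CC ligands of epithelia gave similar levels on all arrays. Ccl27a, a ligand of Ccr10 best known from skin, had levels of 1.08, 1.12, 1.11 and 1.23 in control and 1.06, 1.07, 1.18 and 1.31 in βFbln5KO (log2 difference 0.02, interval −0.13 to 0.17). Ccl28, a mucosal ligand of the same receptor, had levels of −0.46, 0.07, 0.06 and −0.38 in control and −0.05, −0.28, −0.38 and −0.08 in βFbln5KO (difference −0.02). Ccl25, which draws T cells to gut and thymus, had levels of −1.28, −1.02, −1.16 and −1.03 in control and −1.03, −1.23, −1.25 and −1.20 in βFbln5KO (difference −0.06). In each of these 3 genes, by the reported probe, the groups overlapped and the 95% interval stayed within 0.5 log2 units of 0, that is within 1.41-fold. A second, dimmer Ccl25 probe, detected on 3 control arrays and 1 βFbln5KO array, differed by 1.02 (SE 1.28, unadjusted p = 0.446 by limma). Mice carry near-identical copies of Ccl27a and of Ccl21a, so the signals of these probes may include the copies. Another Ccl27a probe, detected on all 8 arrays, was lower by −0.21 with an unadjusted p of 0.0363 and an adjusted p of 0.163 by limma.

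Ccl19, a Ccr7 ligand of lymphoid stroma, and Ccl11, the eosinophil attractant eotaxin, were fainter and more variable. Ccl19 had levels of −2.28, −1.82, −2.96 and −2.20 in control and −1.79, −2.56, −2.62 and −2.38 in βFbln5KO (difference −0.02, interval −0.63 to 0.59). Ccl11 had levels of −3.46, −2.63, −3.61 and −3.10 in control and −2.92, −3.74, −3.20 and −3.10 in βFbln5KO (difference −0.04, interval −0.65 to 0.57). Both genes had overlapping groups with an SD between 0.355 and 0.475 log2 units (n = 4) in each group.

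For none of the 4 atypical receptors was the unadjusted limma p under 0.05 in the reported fit. Ackr3, a scavenger of CXC ligands, had levels of −0.89, −0.50, −0.26 and −0.30 in control and −0.94, −0.83, −0.32 and −0.59 in βFbln5KO (difference −0.18, interval −0.57 to 0.21). Ackr1, the Duffy antigen of venules and red cells, had levels of −2.52, −1.72, −3.23 and −3.69 in control and −3.59, −3.28, −3.41 and −2.45 in βFbln5KO (difference −0.39, interval −1.37 to 0.59). The control arrays alone spanned the whole range of Ackr1. Without control replicate 2 the difference was −0.04, and a second probe, detected on 3 control arrays and 1 βFbln5KO array, differed by −1.01 (SE 0.539, unadjusted p = 0.0936 by limma). Summed endothelial marker levels were 35.3 to 38.6 in control and 35.2 to 38.9 in βFbln5KO. Ackr2, which removes inflammatory CC ligands, was detected on 3 control arrays and on no βFbln5KO array, with levels of −4.32, −4.58, −4.10 and −3.95 in control and −5.45, −4.49, −4.80 and −4.61 in βFbln5KO. The Ackr2 groups overlapped (unadjusted p = 0.0685, adjusted p = 0.25 by limma), and its mean in control lay 1.08-fold above the lowest detectable level of the βFbln5KO arrays, a margin that is gone against the highest of all lowest detectable levels. Its second probe was dim on every array, and the mean of both probes differed by −0.08. With normexp the Ackr2 difference was −0.30 (unadjusted p = 0.0475, adjusted p = 0.754 by limma). Without trend the unadjusted limma p was 0.0345 and the adjusted p 0.155.

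Inflammatory CC ligands of the Ccl5 to Ccl4 cluster varied from array to array more than between the groups. Ccl5, a T cell and monocyte attractant, had levels of −4.03, −4.23, −3.42 and −3.50 in control and −3.15, −2.88, −2.55 and −4.25 in βFbln5KO. On 3 of the 4 βFbln5KO arrays Ccl5 lay above every control array, and on βFbln5KO array 4 it lay below them all (difference 0.59, SE 0.378, unadjusted p = 0.156 by limma). Without βFbln5KO replicate 4 the difference was 0.94, with an unadjusted p of 0.0117 and an adjusted p of 0.0567 by limma.

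Ccl4 and Ccl3, neighbouring ligands made by activated macrophages and lymphocytes, shared their extremes. Levels of Ccl4 were −3.20, −3.17, −2.12 and −4.10 in control and −2.58, −3.03, −2.87 and −2.70 in βFbln5KO (difference 0.35, interval −0.48 to 1.18). Those of Ccl3 were −3.68, −3.22, −2.28 and −5.93 in control, the last not well above background, and −2.94, −3.38, −3.70 and −2.87 in βFbln5KO (difference 0.55, interval −0.98 to 2.09). In each gene, control array 3 was the highest of all 8 arrays and control array 4 the lowest. Without control replicate 3 the Ccl4 difference was 0.69, with an unadjusted p of 0.0342 and an adjusted p of 0.173 by limma.

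Ccl6 and Ccl9, rodent ligands of Ccr1 that lie next to each other in the cluster, had 1 array in common that stood apart. Ccl6 had levels of −4.04, −3.77, −3.30 and −3.67 in control and −3.52, −3.79, −3.87 and −1.25 in βFbln5KO. Ccl9 had levels of −4.39, −3.64, −3.28 and −3.68 in control and −3.68, −4.21, −4.22 and −2.25 in βFbln5KO. βFbln5KO array 4 was the highest for both, while the other 3 βFbln5KO arrays lay within the control range. Ccl6 differed by 0.59 (SE 0.552) with that array and by −0.03 without it. On the same array the summed macrophage marker level was the lowest of the 8 arrays (18.3), with 3 of the 10 markers at their lowest there (Lyz2, C1qb and Itgam) and 1 at its highest (Mrc1), and the part of macrophage content was not tested.

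**Figure D3:**
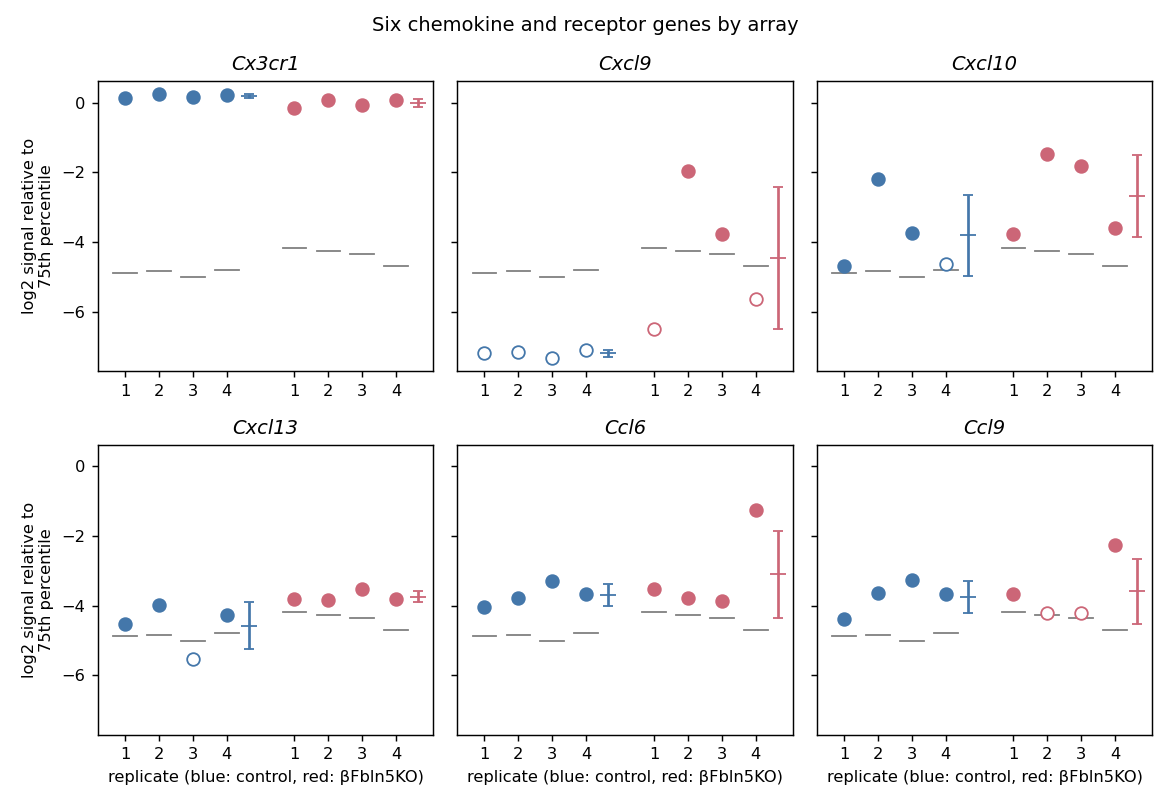
Log2 signal relative to the 75th percentile of the array (vertical axis) for 6 genes by replicate (horizontal axis), with 4 control arrays in blue and 4 βFbln5KO arrays in red. Filled points are well above background, short grey lines mark the lowest signal well above background on that array, and bars give the mean and SD (n = 4). Cxcl9 is above the grey line on βFbln5KO arrays 2 and 3 only, where Cxcl10 is also highest, and Ccl6 and Ccl9 are highest on βFbln5KO array 4.

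Of the 17 genes detected on 1 to 7 arrays, Ccr4, Cxcl13 and Cxcl9 (17.6%) were higher at an unadjusted p under 0.05, against 6.9% of all such genes, and 0 were lower, against 3.83%. Cxcl9 counted as detected through βFbln5KO arrays only, and all fitted values of Ccr4 were at background, so the share rests partly on the choice of detected genes.

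Cxcl9 and Cxcl10 are attractants of activated T cells and NK cells through Cxcr3, and interferon γ induces both. Cxcl9 is among the genes that the study listed on these same arrays, so its direction here is not independent evidence. The 250 bases before each start site, from RefSeq on GRCm38.p6, are shown because these neighbours were brightest on the same arrays. Capitals mark matches to the core of the interferon-stimulated response element (GAAANNGAA) or to the κB consensus on either strand, where N is any base. The Cxcl9 window is chr5:92328080-92328329 and the Cxcl10 window is chr5:92348890-92349139, both on the minus strand and written 5′ to 3′.
Cxcl9: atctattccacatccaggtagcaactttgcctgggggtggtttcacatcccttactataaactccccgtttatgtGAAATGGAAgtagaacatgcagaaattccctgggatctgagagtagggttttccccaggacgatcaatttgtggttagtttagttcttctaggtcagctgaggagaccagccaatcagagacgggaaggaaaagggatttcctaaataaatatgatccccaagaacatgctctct
Cxcl10: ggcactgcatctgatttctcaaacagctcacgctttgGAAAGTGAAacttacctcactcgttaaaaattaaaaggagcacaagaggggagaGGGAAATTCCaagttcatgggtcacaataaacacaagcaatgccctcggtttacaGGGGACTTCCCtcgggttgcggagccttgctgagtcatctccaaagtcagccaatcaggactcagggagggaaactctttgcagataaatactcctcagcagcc
In the Cxcl10 window the core lies 213 to 205 bases before the start, and κB matches lie 159 to 150, 104 to 95 and 103 to 94 bases before it, the last 2 overlapping each other. The Cxcl9 window holds the core 175 to 167 bases before its start and no κB match. Neither window holds the gamma-activated site (TTCNNNGAA). Over the 47 promoters found for 43 of the 57 genes, the response element core occurred in 8 (17.0%; 7.13% of all 32851 promoters), the gamma-activated site in 4 (8.51%; 7.02% of all) and the κB consensus in 11 (23.4%; 7.25% of all). The core was shortened after a longer form had been searched. That form requires 1 more A after the core, and it matched 3 of the 47 promoters (6.38%; 2.98% of all), Cxcl10 among them and Cxcl9 not. The presence of a match in Cxcl9 thus depends on the letters chosen, and a match does not show that a factor binds there.

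Cxcl9 was dim on all 4 control arrays, at −7.19, −7.15, −7.33 and −7.11. On the βFbln5KO arrays it lay at −6.51, −1.95, −3.77 and −5.64, and was well above background on arrays 2 and 3. All βFbln5KO values exceeded all control values, as they did for 16.7% of the genes detected on 1 to 7 arrays. The lowest level of any probe was −7.35 to −7.13 on the control arrays and −7.04 to −6.53 on the βFbln5KO arrays. Values at background thus separate the groups in this direction by themselves. The fitted log2 difference was 2.73 (SE 0.86, unadjusted p = 0.0118, adjusted p = 0.0795 by limma), which is no measured fold because the control probes were at background. The mean of the 4 βFbln5KO values lay 1.33-fold above the lowest detectable level of the control arrays. Only arrays 2 and 3 were well above background in that mean, so this fold is no strict lower bound. The fold was 2.13 without βFbln5KO replicate 1 and 1.13 without replicate 3. Without βFbln5KO replicate 2, or against the highest of all lowest detectable levels, no fold could be given.

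Cxcl10 had levels of −4.70, −2.20, −3.73 and −4.63 in control and −3.78, −1.49, −1.83 and −3.60 in βFbln5KO, and was detected on 7 of the 8 arrays. Its highest values were on βFbln5KO arrays 2 and 3, those on which Cxcl9 was detected, and control array 2 came next. The groups overlapped (difference 1.14, SE 0.701, unadjusted p = 0.141, adjusted p = 0.386 by limma). Without control replicate 2 the difference was 1.67 with an unadjusted p of 0.0279. Their receptor Cxcr3 was detected on no array. Macrophage marker sums on βFbln5KO arrays 1 to 4 were 24.6, 23.9, 24.2 and 18.3, and T and NK cell marker sums, in which Cd3e is the largest term, were 6.97, 6.66, 5.05 and 5.85. Of these 10 markers, 2 (Cd3g and Cd8a) were at their highest of the 8 arrays on βFbln5KO array 2 and 0 at their lowest, and on βFbln5KO array 3 none was at its highest and 2 were at their lowest. Cd8a, singled out after its values were seen, lay at −1.53 on βFbln5KO array 2, at −2.95 on control array 4 and between −7.26 and −6.44 on the other 6 arrays, whereas Lck lay at −2.50, Cd2 at −3.32 and Cd3d at −4.68 on βFbln5KO array 2, each within the range of the other arrays. The part of T cell content in the Cxcl9 and Cxcl10 values was not tested. Of the 21 interferon γ response genes, 8 were at their highest of the 8 arrays on βFbln5KO array 2 and none at its lowest, while on βFbln5KO array 3 only Gbp2 was at its highest and 4, among them Irf1 and Psmb9, were at their lowest. Several of the ranks on βFbln5KO array 2 were near ties. Irgm1 (0.16) and B2m (3.64) had the same rounded level on control array 2, and Igtp (1.21) on βFbln5KO array 4. Irf1 lay at 2.78 beside 2.75 on control array 2, and Jak1 at 3.74 beside 3.70 on control array 3. Gbp3 (−1.21) and Iigp1 (−1.15) stood further apart from the next array, βFbln5KO array 4 (−1.56 and −1.31).

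Cxcl13, the B cell attractant that acts through Cxcr5, lies on chromosome 5 from 95956939 to 95961068. Its levels were −4.52, −3.99, −5.54 and −4.28 in control, the value of −5.54 not well above background, and −3.80, −3.84, −3.51 and −3.81 in βFbln5KO. No values overlapped between the groups, and 16.7% of the genes detected on 1 to 7 arrays also lay wholly higher in βFbln5KO. The difference was 0.84 (SE 0.341, unadjusted p = 0.0365, adjusted p = 0.163 by limma). The fitted 1.79-fold includes the control value that was not well above background. The unadjusted p passed 0.05 in 2 of the 8 fits that left out 1 array, and the difference was 0.52 without control replicate 3. With normexp the difference was 0.24, with an unadjusted p above 0.05. With a common floor on dim signals it was 0.40, with an unadjusted p of 0.00324 by limma. Cxcr5 was dim on 6 arrays but lay at −3.34 on control array 4 and −1.79 on βFbln5KO array 4. The 5 B cell markers gave summed levels of 0.12 and 0.147 on those 2 arrays, with 0.472 on βFbln5KO array 1 and 0.0723 to 0.134 on the other 5. Of these markers Ms4a1 was undetected throughout, and Cd79b was the highest of its group on both Cxcr5-bright arrays (−4.42 on control array 4 and −3.63 on βFbln5KO array 4, with its βFbln5KO array 2 value left out as an outlier). The part of B cell content in the Cxcr5 values was not tested.

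Other ligands and receptors of recruited leukocytes were faint and overlapped between groups. Ccl2, the main attractant of monocytes, was detected on 7 arrays at −4.67 to −2.96 in control and −4.59 to −3.03 in βFbln5KO (difference 0.03, interval −0.96 to 1.02). Its receptor Ccr2, also on 7 arrays, lay at −4.22 to −3.65 in control and −5.10 to −3.62 in βFbln5KO (difference −0.43, unadjusted p = 0.236 by limma). Cxcr4, a receptor of most leukocytes, lay at −3.93 to −3.52 in control and −4.28 to −3.76 in βFbln5KO (difference −0.32, unadjusted p = 0.169 by limma). Cxcl14, an epithelial ligand, was detected on 3 control arrays and 1 βFbln5KO array (difference −0.01), and Ccr8, a receptor of regulatory T cells, on 2 control arrays and 1 βFbln5KO array (difference −0.21).

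Detection was limited to 1 group for 7 genes. Cxcl9, Xcl1, Cxcl17 and Ackr4 (7.02% of the 57 genes) were detected on βFbln5KO arrays only, against 4.63% of all genes, and Ackr2, Cxcr1 and Ccr4 (5.26%) on control arrays only, against 5.07%. Apart from Cxcl9 and Ackr2 each rested on 1 array. Xcl1, a ligand of cytotoxic lymphocytes, lay at −3.47 on βFbln5KO array 3 and at −6.96, −6.36, −6.46 and −6.89 in control, with −6.35, −6.30 and −6.68 on the other βFbln5KO arrays. Cxcl17, a mucosal ligand, lay at −3.66 on βFbln5KO array 4, at −6.38, −6.47 and −6.63 on the other 3 and at −7.09, −7.04, −7.22 and −6.98 in control. Cxcr1, a neutrophil receptor, lay at −3.59 on control array 3, at −6.96, −6.82 and −6.73 on the other control arrays and at −6.26, −6.29, −6.50 and −6.86 in βFbln5KO. These single bright arrays do not give a fold for any of the 3 genes, since the brighter group's mean stayed below the lowest detectable level. Without βFbln5KO replicate 4 Cxcl17 had a fitted difference of 0.59 and an adjusted p of 0.00341 by limma, with all its remaining values at background.

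Ackr4, a scavenger of Ccl19, Ccl21 and Ccl25, and Ccr4, the receptor of Ccl17 and Ccl22, were each well above background on 1 array whose value the scanner software marked as an outlier. Without that value Ackr4 lay at −7.10, −7.06, −7.25 and −5.46 in control and −6.43, −6.48 and −6.88 in βFbln5KO (difference 0.12). Without control replicate 4 the Ackr4 difference was 0.54, with an unadjusted p of 0.0154 by limma and all its remaining values at background. Ccr4 lay at −7.00, −7.00 and −6.80 on control arrays 1, 3 and 4 and at −6.32, −6.38, −6.50 and −6.83 in βFbln5KO (difference 0.43, unadjusted p = 0.0348, adjusted p = 0.158 by limma). The Ccr4 difference turned to −1.11 when outlier-marked spots were kept, to −0.37 with normexp and to −0.04 with quantile normalization, and all of its fitted values were at background.

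**Figure D4:**
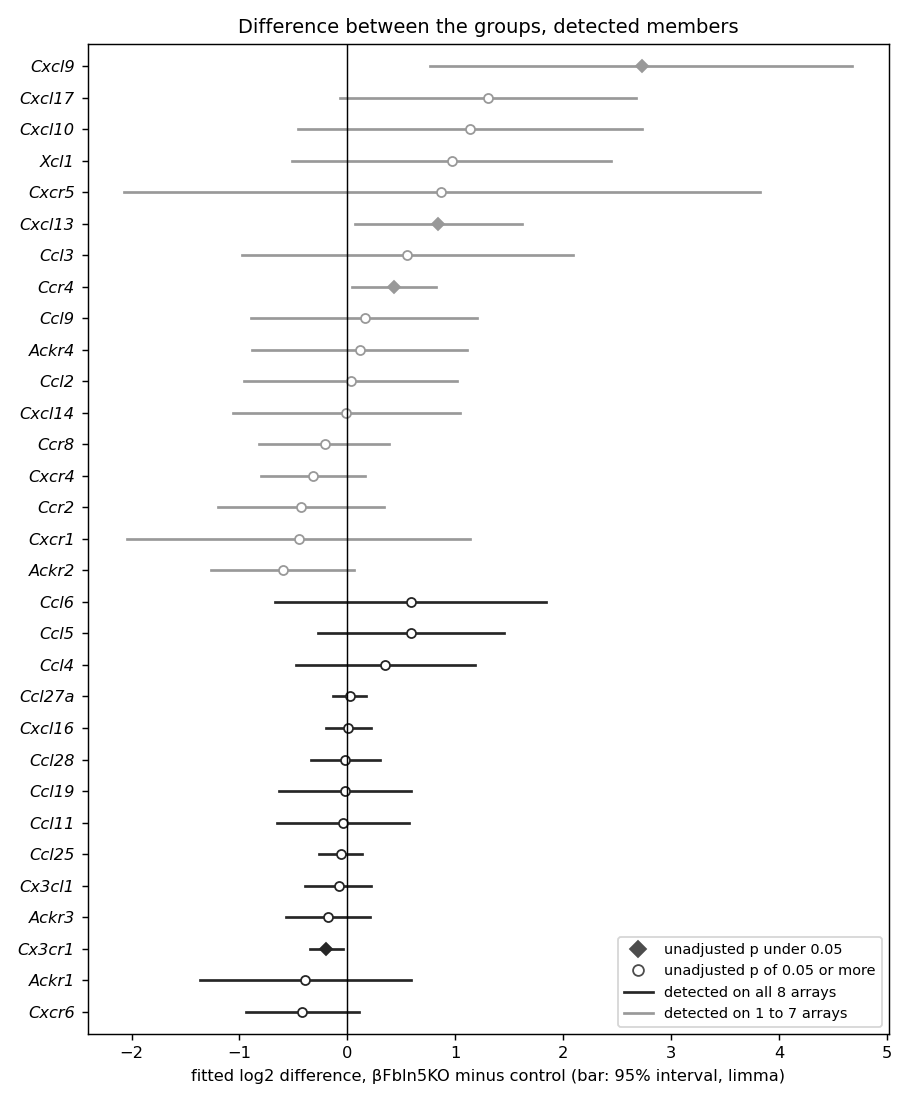
Fitted log2 difference, βFbln5KO minus control (horizontal axis), with its 95% interval from limma, for the 31 genes detected on at least 1 array. Black marks genes detected on all 8 arrays and grey those on 1 to 7, and filled diamonds have an unadjusted p under 0.05. The black points lie between −0.42 and 0.59, and the filled diamonds are Cxcl9, Cxcl13, Ccr4 and Cx3cr1.

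Genes that act downstream of chemokine receptors, or that respond to the same signals as chemokine genes, were read from 4 lists. None of them had an adjusted p under 0.05 by limma, and the counts of these lists are at an unadjusted p under 0.05, which 16.8% of all genes passed in the higher and 2.68% in the lower direction. Of 25 genes of chemokine receptor signalling, 22 were detected on all 8 arrays, 0 were higher and 1 (4.0%) was lower, Arrb1, a β-arrestin that uncouples receptors from G proteins (difference −0.25, SE 0.105, unadjusted p = 0.0408, adjusted p = 0.176). Of 21 interferon γ response genes, 18 were detected on all 8 arrays, 1 undetected gene (4.76%) was higher and 1 (4.76%) was lower, Ciita, the activator of MHC class II genes (difference −0.42, SE 0.131, unadjusted p = 0.0112, adjusted p = 0.0782). Of 19 genes of NF-kB and inflammatory cytokines, 3 (15.8%) were higher, all undetected on every array, and 0 were lower. Of 15 other chemoattractants and receptors, 2 (13.3%) were higher, both undetected on every array, and 0 were lower. The median log2 difference of these lists was −0.00 for receptor signalling, 0.07 for the interferon γ response, 0.16 for NF-kB and −0.07 for other chemoattractants, beside 0.02 for all genes. Summed levels of the 7 acinar markers, from exocrine cells, were 871 to 2420 in control and 525 to 1500 in βFbln5KO, and their part in the chemokine values was not tested.

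**Figure D5:**
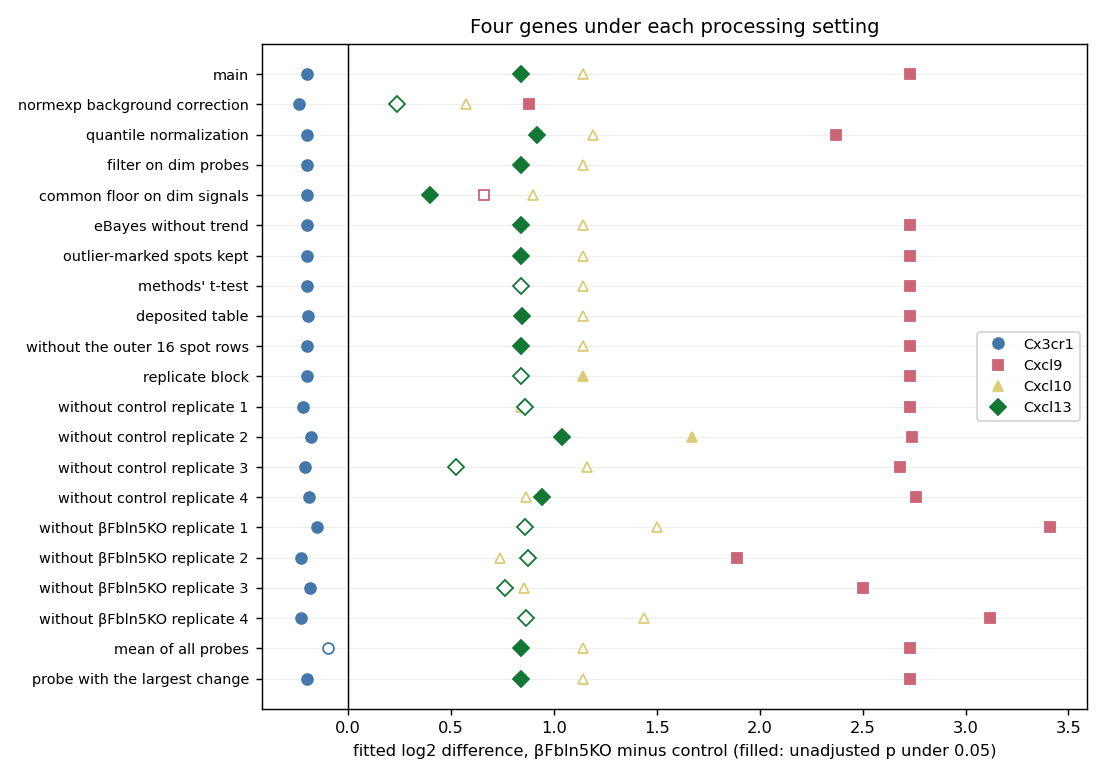
Fitted log2 difference, βFbln5KO minus control (horizontal axis), of Cx3cr1, Cxcl9, Cxcl10 and Cxcl13 under each way of processing the arrays (vertical axis), filled where the unadjusted p was under 0.05. Cx3cr1 stays between −0.24 and −0.09, Cxcl13 ranges from 0.24 to 1.04 and Cxcl9 from 0.66 to 3.41, and a gene without a point was not tested under that setting.

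How firmly the 4 genes with an unadjusted p under 0.05 and a detected probe stood to the processing differed. Cx3cr1 kept an unadjusted p under 0.05 in all 8 fits that left out an array, with differences from −0.23 to −0.15, and in 11 of 12 other settings. Cxcl9 kept it in all 8, with fitted differences from 1.89 to 3.41, and in 10 of 11 other settings, the exception being a common floor on dim signals (0.66). Cxcl13 kept it in 9 of 12 other settings, and Ccr4 changed direction as described.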

How the data were processed

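Islet RNA of 4 control and 4 βFbln5KO samples was labelled with Cy3 and hybridised to 8 one-colour Agilent mouse arrays. For every spot the authors deposited an intensity, the processed signal after background subtraction by Agilent Feature Extraction 11.0.1.1, with flags for outliers and for spots well above background. A table of the same arrays that the authors deposited holds a ratio, the processed signal over 1 number per array, and was used only as an alternative. Log2 values were taken here of the 59305 spots that are not controls, each array's 75th percentile (709 to 1012 in control, 910 to 1055 in βFbln5KO) was subtracted, 1689 outlier-marked values were left out, and replicate spots were averaged to 56605 probes. Names came through RefSeq accessions for 32994 probes.

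All 8 arrays were fitted with limma 3.58.1 (lmFit, eBayes with trend) in R 4.3.3 over all probes with Benjamini-Hochberg adjustment and a threshold of 0.05, after tests on simulated data. A fold against a group with no detected array was taken from the mean of the other group, against the lowest detectable levels of the undetected arrays. Where that mean includes dim values, the fold is no strict lower bound. Named genes were those detected on all 8 arrays, those detected on some with an unadjusted p under 0.05 or in 1 group alone, and Cxcl9. Genes detected on some arrays and outside this rule were added after their values were seen. The members, marker lists, pathway lists and tests were chosen with earlier results of these data known. Alternatives were normexp (offset 50), quantile normalization, a filter to probes detected on at least 4 arrays, a common floor, eBayes without trend, outliers kept, other probe choices, the methods' t-test, the deposited table, no outer 16 spot rows, a replicate block and each array left out. The labels call the samples biological replicates. The number of arrays limits the precision. Files were read with the R package data.table (version 1.17.8) and with pandas 2.3.3 in Python 3.11.15, and figures drawn with matplotlib 3.10.9. The values of 1 gene that is included in the counts are not reported here.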

Additional observations from a re-analysis of the deposited data

Results flagged for a closer look

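Over the 31 genes detected on at least 1 array, 10 of 60 groups of 4 arrays had 1 array far from the other 3, measured as the gap to its neighbour over the whole range of the group. That share (16.7%) stands beside 8.63% of the groups of all genes detected on at least 1 array. For genes detected on all 8 arrays it was 7.14% (2 of 28 groups), against 5.78% of the groups of all such genes, and for genes detected on 1 to 7 arrays 25.0% (8 of 32), against 19.9%. Chance gives about 1 group in 20 only where detection did not choose the genes. Xcl1, Cxcl17 and Cxcr1 were detected only on the array named for each here, and Cxcr5 only on its 2 arrays, so these genes were kept because of the values that stand apart. Of the 10, 7 were in βFbln5KO and 3 in control. On βFbln5KO array 4, Ccl6 lay at −1.25, Cxcr5 at −1.79, Cxcl17 at −3.66 and Ccr8 at −4.54, each the highest of its group, and Cxcr6 at −3.64, the lowest of a group whose other 3 values lay within 0.01 of each other. On βFbln5KO array 3, Xcl1 lay at −3.47 and Cxcl13 at −3.51, each the highest of its group. On control array 4, Cxcr5 lay at −3.34 and Ackr4 at −5.46, and on control array 3, Cxcr1 lay at −3.59, each the highest of its group.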

How the results depend on the processing

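The count of 18 higher genes (31.6%, against 16.8% of all genes) became 1 with normexp (1.75%, against 0.742%), 3 with quantile normalization (5.26%, against 1.9%), 1 of 22 with a filter on dim probes (4.55%, against 0.869%), 1 with a common floor (1.75%, against 0.873%), 2 of 28 with the deposited table (7.14%, against 1.4%) and 3 of 31 over detected genes alone (9.68%, against 2.23%), an alternative chosen after seeing the data. Of the 3 detected genes, Cxcl9 was detected on βFbln5KO arrays only and Ccr4 was fitted at background. The count of 18 was 16 to 19 when an array was left out. The 2 lower genes became 5 with normexp (8.77%, against 3.86% of all genes) and 1 with the filter, the floor, the deposited table, the mean of all probes or detected genes alone (2.11% to 3.56% of all genes), and 2 to 3 with an array left out. Adjusted calls were 10 without trend (17.5%, against 9.11% of all genes), 1 with the methods' t-test (1.75%, against 0.153%) and 0 to 17 with an array left out, 17 being without βFbln5KO replicate 4 (29.8%, against 16.4%). Over the 4 pathway lists, 6 higher genes of 80 (7.5%, against 16.8% of all genes) became 2 with normexp (2.5%, against 0.742%), 0 with quantile normalization (1.9% of all genes), the filter (0.869%), the floor (0.873%) or the deposited table (1.4%), 11 with each gene's probe of the largest change (13.8%, against 20.3%) and 5 to 9 with an array left out. Their 2 lower genes became 1 with the floor, without trend, with the t-test, the deposited table, the replicate block or the mean of probes (1.25% to 1.52%, against 2.11% to 3.24% of all genes), and 1 to 3 with an array left out. In these settings fewer genes enter (filter, deposited table, detected genes) or dim signals are rescaled. For the others the cause was not tested. The median of genes detected on all 8 arrays moved by less than its SD over arrays (0.229).

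Of 447 recomputed differences of 23 named genes, 412 kept their direction and their side of the threshold on the adjusted p, and 12 genes never changed sign. On the unadjusted p, 33 of the 447, in 12 genes, lay on the other side of 0.05 from the reported fit. With normexp, Ccl27a turned to −0.0208, Ackr4 to −0.368 and Ccr4 to −0.365. With quantile normalization, Ccl19 turned to 0.00182, Ackr4 to −0.316 and Ccr4 to −0.0443. Ccr4 was −1.11 with outliers kept. The mean of all probes turned Ccl27a to −0.0424, Ccl25 to 0.411 and Cxcl16 to −0.0246, and the probe of the largest change gave −0.206, 1.02 and −0.0595. With an array left out, the range crossed 0 for Ccl27a (−0.0316 to 0.0518), Cx3cl1 (−0.174 to 0.015), Ccl28 (−0.115 to 0.061), Cxcl16 (−0.0627 to 0.0551), Ccl19 (−0.236 to 0.145), Ccl11 (−0.176 to 0.15), Ccl6 (−0.0338 to 0.841), Cxcr1 (−0.763 to 0.362) and Ackr4 (−0.059 to 0.537).

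Replicate numbers are shared by the groups, and deviations of same-numbered arrays correlated at 0.20, 0.295, −0.225 and −0.022. Control arrays 1 and 2 were best matched by the βFbln5KO array of their own number, and control arrays 3 and 4 by βFbln5KO arrays 4 and 3. These correlations did not show pairing by number, and so few weak values cannot exclude it. With the replicate block Ackr4 turned to −0.059, Cxcl10 had an unadjusted p of 0.00383 (adjusted p 0.219) and Cxcl17 one of 0.042, Cxcr5 also passed 0.05, Cxcl13 (0.0648) and Ccr4 (0.167) no longer passed 0.05, and the higher, lower and adjusted counts of chemokine genes stayed within 1.5 times. Genes near or below background are limited by signal, and no order is read among them.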
